A study of Sus scrofa with 85 samples.

Results

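The mitochondrial genome of the pig encodes 7 subunits of respiratory complex I, the NADH dehydrogenase that passes electrons from NADH to ubiquinone and pumps protons across the inner mitochondrial membrane. Their genes, ND1, ND2, ND3, ND4L, ND4, ND5 and ND6, were taken by gene identifier, and all 7 were found among the 31907 genes counted. RNA was sequenced from micro-endomyocardial biopsies (micro-EMBs) of the left ventricle and from blood of 3 female mixed-breed farm swine, numbered 1640, 1644 and 5385. Samples were taken before, during and after a transient balloon occlusion of the distal left anterior descending artery, which was followed by reperfusion. Per the study, 0–1 h was the time of the occlusion itself, and the later times followed reperfusion. Micro-EMBs came from the infarcted (apical) and the non-infarcted (lateral) region at 0–1 h, 1–3 h, 2 days and 14 days, with 1 set of baseline micro-EMBs, labelled apical, that served both regions. Per the study, the baseline micro-EMBs were not aimed at a given region, so site and time cannot be told apart against baseline. Blood was drawn at baseline, 1–3 h, 2 days and 14 days. All 3 animals carried the infarction and no untreated animals were compared, so the controls were the baseline libraries, pooled over animals, and the non-infarcted region at the same time, and nothing in the labels gives an age.

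The mitochondrially encoded subunits form the membrane arm of complex I, which carries the proton-pumping channels, and they join a larger number of subunits encoded in the nucleus. Both strands of the circular genome are transcribed as long precursors that are cut into single transcripts at the tRNAs between the genes. ND6 lies on the opposite strand to the other members. Heart muscle is packed with mitochondria, whereas mature mammalian red cells hold none and leukocytes hold fewer than a cardiomyocyte.

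On the RefSeq annotation of Sscrofa11.1 the members lie between positions 3922 and 15266 of the 16613-base mitochondrial genome, and none has an intron. ND1 (ENSSSCG00000018065) spans 3922 to 4876, ND2 (ENSSSCG00000018069) 5087 to 6128 and ND3 (ENSSSCG00000018084) 10653 to 10998. ND4L (ENSSSCG00000018086) spans 11069 to 11365, ND4 (ENSSSCG00000018087) 11359 to 12736 and ND5 (ENSSSCG00000018091) 12935 to 14755. ND6 (ENSSSCG00000018092) spans 14739 to 15266 on the minus strand. The members thus run from 297 bases (ND4L) to 1821 bases (ND5), and counts of different members are compared below only per kilobase.

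Members overlap at 2 places, and these stretches are shown because a read across them belongs to a pair of members. The first is the end of ND4L and the start of ND4, on the same strand and in a shared transcript, at MT:11341-11383. The second is where the ends of ND5 and ND6 meet on opposite strands, at MT:14721-14773. Both are given on the plus strand of Sscrofa11.1, 5′ to 3′, with the shared bases in capitals (7 bases and 17 bases).
ND4L/ND4: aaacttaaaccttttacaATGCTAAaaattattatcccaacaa
ND5/ND6: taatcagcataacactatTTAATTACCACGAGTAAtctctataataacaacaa
The column names of the count table carry the featureCounts setting for counting without regard to strand, so reads from a member and from the opposite strand at the same place cannot be told apart. Reads from nuclear copies of mitochondrial sequence could not be separated either.

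Of 85 libraries, 1 blood library held 11505 counts and was left out. The other 84 held 3499443 counts or more. In 25 of them (15 micro-EMB and 10 blood) the 10 most counted genes took under 7% of all counts, and in 2 micro-EMB libraries they took over 60%. These 27 were left out of the main fits and are given beside them, and 45 micro-EMB and 12 blood libraries were retained. A member was among the 10 most counted genes of 32 retained libraries, but the same libraries were left out when the profile was judged without the protein genes of the mitochondrial genome. Among the retained micro-EMB libraries 6 stood apart on the second principal component (4 of swine 1644 and 2 of swine 5385), with cardiomyocyte markers summing to 95.9 to 998 CPM (counts scaled to a common library total) against 7909 to 36382 CPM in the other 39.

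The 7 members together took 1.38% of total counts in micro-EMBs (SD 0.494, n = 45, lowest 0.304%, median 1.37%, highest 2.30%). In blood they took 0.262% (SD 0.0847, n = 12, lowest 0.117%, median 0.263%, highest 0.478%). Micro-EMBs were therefore 5.27 times as rich in these transcripts by the ratio of means, and 5 of the 45 micro-EMB libraries lay at or below the highest blood library. Those 5 were among the 6 libraries apart on component 2. Without the 6, micro-EMBs ran from 0.838% to 2.30% and no longer overlapped blood.

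The ratio of the mean micro-EMB share to the mean blood share held within each animal. It was 4.70 in swine 1640 (15 micro-EMB and 4 blood libraries), 4.51 in swine 1644 (14 and 4) and 7.12 in swine 5385 (16 and 4). Within each animal, no retained micro-EMB library fell to the level of that animal's highest blood library, those apart on component 2 included. When all 84 libraries were taken, the mean shares were 1.16% in 62 micro-EMB and 0.187% in 22 blood libraries. The left-out libraries were lower: those with under 7% in the 10 most counted genes averaged 0.605% in micro-EMBs and 0.0970% in blood.

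**Figure D1:**
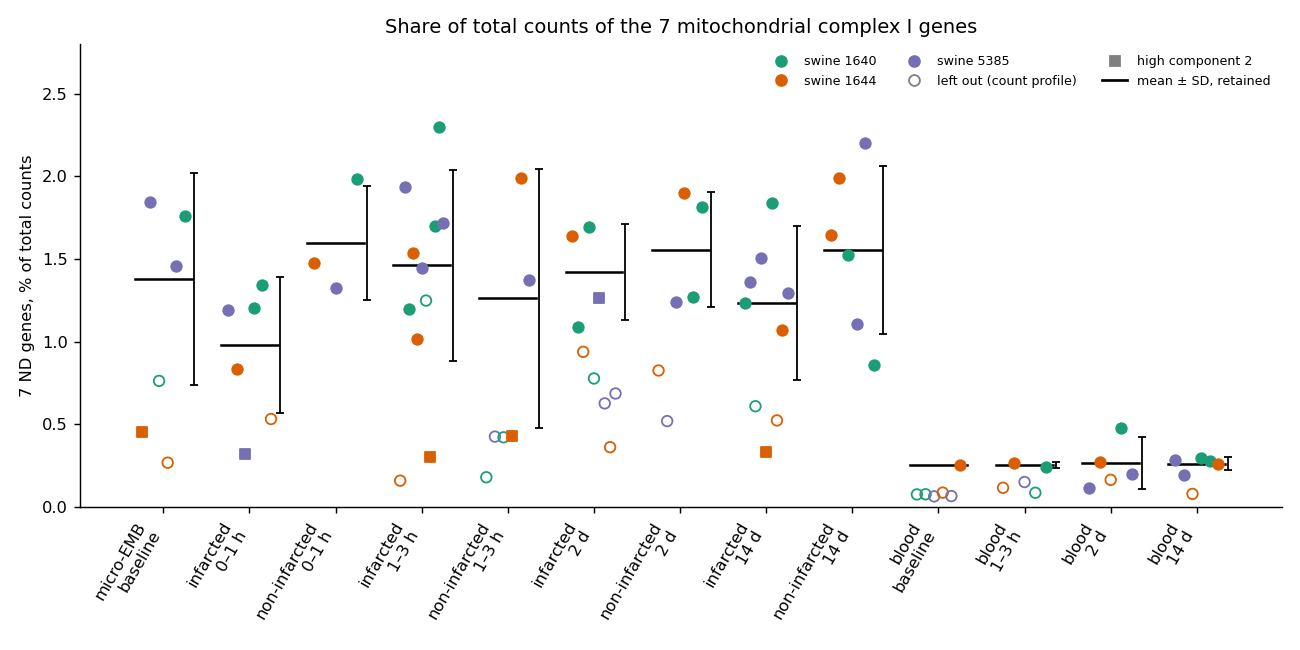
Share of total counts (%, vertical axis) of the 7 mitochondrial complex I genes in each library, by group (horizontal axis); colours are the 3 swine, filled points are retained libraries, open points were left out for their count profile, squares stood apart on component 2, and lines with bars are the mean ± SD of the retained libraries. The micro-EMB groups average 0.980% to 1.60% and overlap one another, and the blood groups sit between 0.253% and 0.267%.

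All 7 members were higher in micro-EMBs than in blood, by a log2 fold change of 2.42 to 3.16, in an edgeR quasi-likelihood test of the 6 micro-EMB groups of 1–3 h to 14 days against the 3 blood groups of the same times. All 7 were called at an adjusted p of 0.05 or less, in a comparison where 48.6% of the 18441 genes tested were called, so that passing the threshold here is common. The members lay between the 90.2 and the 93.7 percentile of all log2 fold changes. The median over the members was 2.99 and the median over all genes tested was -0.09.

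ND5, the member at the far end of the membrane arm and one of its antiporter-like channel subunits, showed the largest difference. Its level was 10.16 to 13.06 log2 CPM in micro-EMBs (median 12.39) and 8.73 to 10.54 in blood (median 9.72). For each member, the micro-EMB libraries that reached down into the range of blood were all among those apart on component 2. The log2 fold change was 3.16 (SE 0.39, edgeR adjusted p = 1.229e-09). ND4, a second antiporter-like subunit, ran from 9.43 to 12.76 log2 CPM in micro-EMBs and from 8.46 to 10.14 in blood, with a log2 fold change of 2.99 (SE 0.41).

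ND4L, the small subunit whose gene runs into ND4, ran from 5.99 to 8.99 log2 CPM in micro-EMBs (median 8.11) and from 4.60 to 6.53 in blood (median 5.51), and rose by 3.00 (SE 0.38). ND6, encoded on the other strand, ran from 8.24 to 11.08 (median 10.24) against 6.58 to 8.88 (median 7.80), and rose by 3.03 (SE 0.35). The value of ND6 thus lay between those of ND4L and ND5 on the other strand.

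ND1, which lies at the junction of the membrane arm with the hydrophilic arm, ran from 7.87 to 11.47 log2 CPM in micro-EMBs (median 10.49) and from 6.77 to 9.31 in blood (median 8.47). Its log2 fold change was 2.66 (SE 0.38). ND2, the remaining antiporter-like subunit, rose by 2.65 (SE 0.37), and ND3, a small subunit near the same junction, by 2.42 (SE 0.36). These 3 members had the smaller differences and ND4L, ND4, ND5 and ND6 the larger, and the difference between members was not tested.

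With all 84 libraries the median over the members was 2.67, and all 7 stayed called. Without the 6 libraries apart on component 2 it was 3.26, and all 7 stayed called. In every alternative fit of this comparison, including the fit with swine as a replicate block (median 2.93) and the fit of counts summed per swine and group (2.95), 7 of 7 members were called. Fewer cells of a mitochondria-rich type and less mitochondrial RNA per cell cannot be told apart in bulk libraries.

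**Figure D2:**
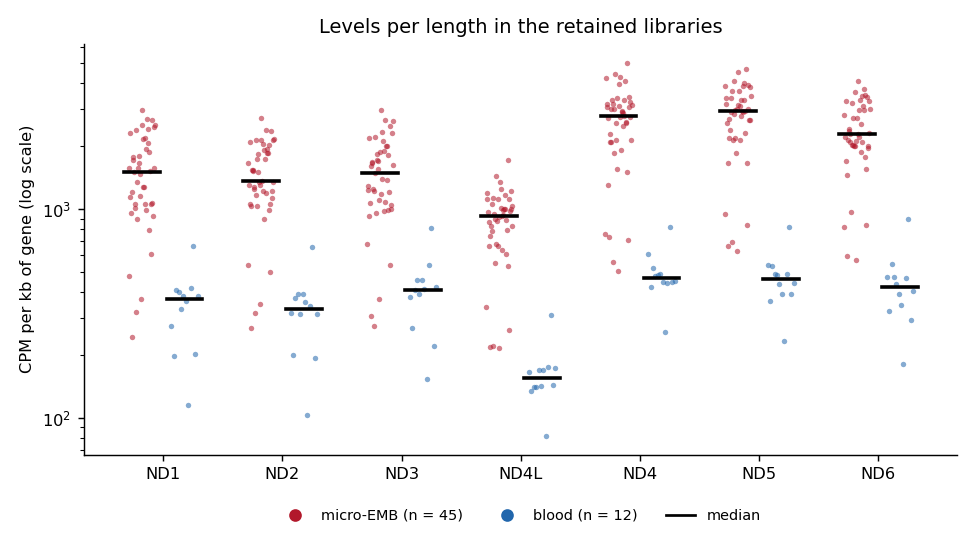
CPM per kilobase of gene (vertical axis, log scale) of each member (horizontal axis, in genome order) in the 45 retained micro-EMB and 12 retained blood libraries; each point is a library and the bar is the median. ND4L is lowest in both sample types, and ND4, ND5 and ND6 are highest in micro-EMBs.

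Per kilobase the members were not counted equally. In micro-EMBs the mean level was 2797 CPM per kb for ND5 (SD 1008, n = 45), 2664 for ND4 (SD 1058), 2371 for ND6 (SD 862), 1523 for ND1 (SD 697), 1509 for ND3 (SD 643), 1467 for ND2 (SD 582) and 881 for ND4L (SD 322). Of these 6 steps only the last, from ND2 down to ND4L, was larger than the SD between libraries. Libraries shift all members together, however, and within a library ND6 was above ND1 in 45 of 45 libraries and ND2 above ND4L in 44 of 45.

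The top of the order depended on the animal. ND5 was above ND4 per kb in 15 of 15 micro-EMB libraries of swine 1640, in 13 of 14 of swine 1644 and in 2 of 16 of swine 5385. ND4 was above ND6 in 3 of 15, 2 of 14 and 16 of 16. In blood ND4L was again lowest, at 162.04 CPM per kb (SD 53.5, n = 12), below ND2 in 12 of 12 libraries. The members above it ran from ND2 at 329 (SD 136.2) to ND4 at 488 (SD 132), with every step among them within the SD.

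Within a library the highest member per kb was 3.25 times the lowest at the median in micro-EMBs (2.50 to 6.76) and 3.14 times in blood (2.60 to 3.86). In the libraries with under 7% in the 10 most counted genes this ratio was 5.61 at the median in micro-EMBs and 5.62 in blood. In the micro-EMBs among them ND4L counts were 0.0407 of ND4 counts at the median, against 0.0730 in the retained micro-EMBs. The members took 53.3% of the counts of the 13 protein genes of the mitochondrial genome at the median there, against 39.6% in the retained micro-EMBs, and ND5 counts were 1.33 times those of COX1 (subunit 1 of complex IV) against 0.596 times. In these libraries the members thus made up more of the mitochondrial protein counts, and COX1 less relative to ND5.

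No member was called in any comparison between times or regions. Over the 12 such comparisons in micro-EMBs and their 84 member values, log2 fold changes ran from -0.81 to 0.59 with standard errors of 0.40 to 0.69, the lowest unadjusted p of edgeR's quasi-likelihood test was 0.1434, and 0 values had an unadjusted p under 0.05. DESeq2 called 0 members in these comparisons and in the blood ones.

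The share of the members was 0.455%, 1.85%, 1.45% and 1.76% in the 4 baseline libraries (mean 1.38%, SD 0.639), the lowest of them the swine 1644 library apart on component 2. In the infarcted region it was 1.19%, 0.838%, 0.321%, 1.20% and 1.34% at 0–1 h (mean 0.980%, SD 0.413). The ranges overlapped, since a library apart on component 2 was the lowest of each group. Without these libraries the means were 1.69% (SD 0.206, n = 3) and 1.14% (SD 0.216, n = 4), and the ranges, 1.45% to 1.85% and 0.838% to 1.34%, no longer overlapped. How many of all genes had separate ranges between so few libraries was not counted, so nothing is read from this separation.

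All 7 members were lower at 0–1 h than at baseline, from -0.28 (SE 0.55) for ND1 to -0.77 (SE 0.62) for ND4 on the log2 scale, and none passed the test. The median over the members, -0.56, became -0.26 without replicate 2 of baseline, -0.32 without replicate 3 at 0–1 h and -0.87 without replicate 1 of baseline. Here 0% of the 17929 genes tested were called, 596 had an unadjusted p under 0.05, and DESeq2 called 2 genes. Without the libraries apart on component 2 the median over the members was -0.68 in place of -0.56, and ND6 had the lowest unadjusted p, 0.0485 (edgeR adjusted p = 0.982).

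At 1–3 h the share ran from 0.304% to 2.30% (median 1.54%, n = 9), and the members' log2 fold changes from baseline ran from 0.08 to 0.35. In that comparison 1.62% of genes were called (291, of which 140 were lower) and 0 of 7 members. At 2 days the share was 1.64%, 1.09%, 1.69% and 1.27%, with log2 fold changes of -0.19 to 0.34. At 14 days it ran from 0.334% to 1.84% (median 1.29%, n = 7), with log2 fold changes of -0.33 to -0.13. The members' median turned direction without 1 baseline library, from 0.15 to -0.16 without replicate 1 at 1–3 h and from -0.27 to 0.05 without replicate 2 at 14 days. At 2 days and 14 days 0% of genes were called, with 515 and 477 genes at an unadjusted p under 0.05 and 8 and 0 genes called by DESeq2.

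The 2-day library of swine 5385 at 1.27% is the exception among the 6 libraries apart on component 2. Its cardiomyocyte markers summed to 439 CPM, against 387 CPM in the baseline library at 0.455%. The other 5 ran from 0.304% to 0.455%. Fibroblast markers summed to 15120 to 85386 CPM in the 6, against 1359 to 30767 CPM in the other 39 retained micro-EMBs, and the part of this in the members' share was not tested.

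In the non-infarcted region the share was 1.48%, 1.32% and 1.98% at 0–1 h, 0.432%, 1.99% and 1.37% at 1–3 h, and 1.24%, 1.90%, 1.27% and 1.81% at 2 days. At 14 days it ran from 0.859% to 2.20% (median 1.58%, n = 6). Every group overlapped the baseline range. The members' median log2 fold change from baseline was 0.25, -0.08, 0.23 and -0.06 at these 4 times. In each 0% of the 18185 genes tested were called by edgeR's quasi-likelihood test, with 518, 1282, 373 and 1564 genes at an unadjusted p under 0.05, and DESeq2 called 7, 58, 0 and 0 genes.

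Set against each other at the same time, the infarcted region was lower than the non-infarcted region for all 7 members at 0–1 h, by log2 fold changes of -0.81 to -0.70. The farthest from 0 was that of ND5 (SE 0.60, edgeR adjusted p = 1), which was 10.24 to 12.26 log2 CPM in 5 infarcted libraries and 12.37 to 12.79 in 3 non-infarcted ones. The ranges of the summed share overlapped (0.321% to 1.34% against 1.32% to 1.98%). The infarcted library at 0.321% was apart on component 2, and no non-infarcted library at 0–1 h was. With 1 library left out at a time, the members' median at 0–1 h ran from -1.01 to -0.54. How many of all genes had separate ranges between 5 and 3 libraries was not counted, so nothing is read from the separate ranges of ND5. Here 0% of the 18097 genes tested were called, with 0.956% at an unadjusted p under 0.05 and 0 called by DESeq2. All 7 members were higher in the infarcted region at 1–3 h (0.20 to 0.40), where 0.0663% of genes were called, all of them lower, and no member. Per the study, sampling of both regions was partly inaccurate. Some of its samples labelled non-infarcted clustered with infarcted ones of 1–3 h, and the study holds sampling inaccuracy to be the most likely reason. Comparisons between regions therefore rest on labels that may not give the true site.

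The members' median between regions at 1–3 h moved with single libraries of the non-infarcted group of 3. Without replicate 5 of the non-infarcted group at 1–3 h, of swine 1644 at 1.99%, the median over the members moved from 0.27 to 1.11. Without replicate 4, the swine 1644 library apart on component 2, it moved to -0.18. At 2 days the members' log2 fold changes between regions ran from -0.30 to -0.15 and at 14 days from -0.23 to -0.12, with 0% of genes called at both times, 618 and 961 genes at an unadjusted p under 0.05, and 5 and 0 genes called by DESeq2.

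**Figure D3:**
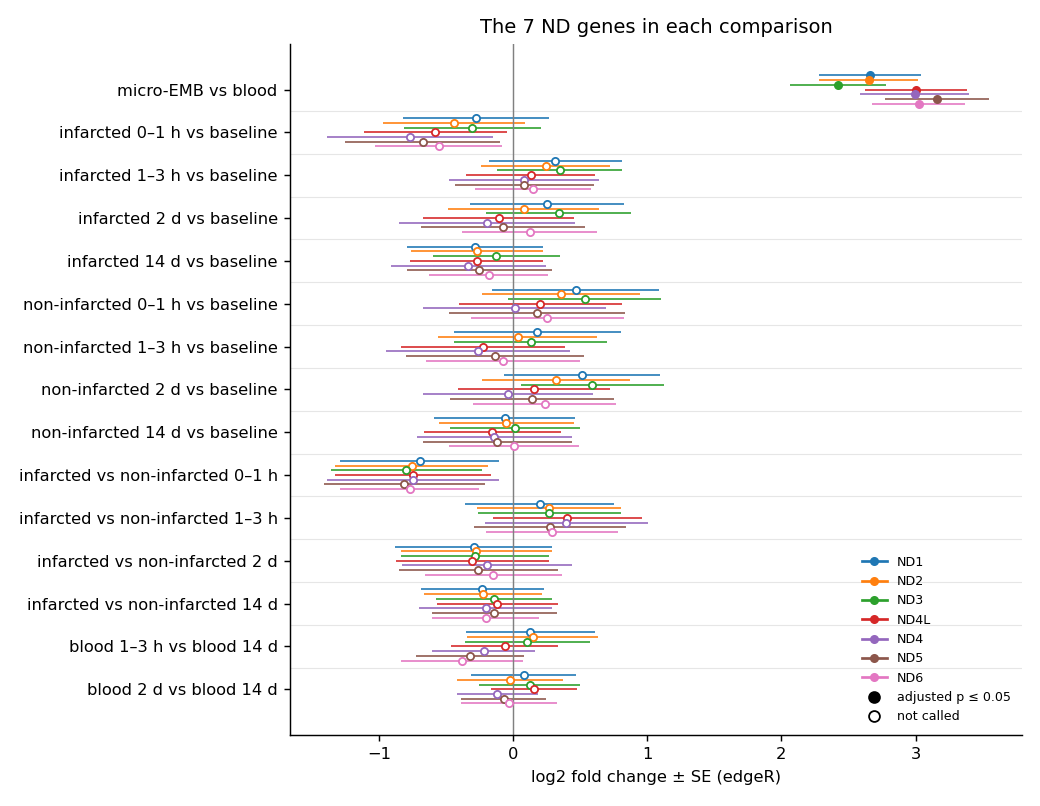
Log2 fold change ± SE (horizontal axis) of each member, by colour, in each comparison (vertical axis), from edgeR fits of the retained libraries; filled points passed an adjusted p of 0.05. All 7 points of the micro-EMB against blood comparison lie at 2.42 to 3.16 and are filled, and every other point is open and lies between -0.81 and 0.59.

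In blood the share of the members was 0.253% in the only retained baseline library, 0.265% and 0.242% at 1–3 h, 0.117%, 0.273%, 0.478% and 0.199% at 2 days, and 0.284%, 0.194%, 0.294%, 0.279% and 0.261% at 14 days. The 2-day libraries held both the lowest value (swine 5385) and the highest (swine 1640). Against 14 days the members' log2 fold changes ran from -0.39 to 0.14 at 1–3 h and from -0.12 to 0.16 at 2 days. No member was called, and 0% of the 18956 genes tested were called at either time, with 573 and 1214 genes at an unadjusted p under 0.05 and 63 and 1 genes called by DESeq2. With all 6 baseline blood libraries the baseline mean was 0.104%, since 5 of them had under 7% of counts in the 10 most counted genes.

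The proportions of the members differed by animal. This was noticed in these data and the comparisons by animal were added afterwards. ND1 made up 6.58% to 8.13% of the members' counts in the 16 retained micro-EMB libraries of swine 5385 (median 7.19%). In the 29 libraries of swine 1640 and 1644 it made up 9.14% to 14.1% (median 12.4%). ND4 made up 30.1% to 34.3% in swine 5385 and 21.2% to 28.4% in the others. Neither range overlapped.

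In blood ND1 and ND4 were separate as well, and ND3, ND4L and ND6 overlapped. ND1 made up 9.19% to 9.70% of the members' counts in the 4 blood libraries of swine 5385 and 12.2% to 14.7% in the 8 of the other animals, and ND4 29.6% to 31.0% against 22.2% to 25.4%. ND2 was also lower in swine 5385 without overlap in the retained micro-EMBs and blood, while ND5 was higher in blood without overlap. The summed share in blood was lower too, at 0.117% to 0.284% in swine 5385 against 0.242% to 0.478%, with 1 of its 4 libraries within the range of the others. The shares of 1 library add up to 100, so a lower share of ND1 and a higher share of ND4 are not independent of each other.

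The libraries that had been left out for their count profile gave ND1 the same order. ND1 made up 7.79% to 8.65% of the members' counts in 4 left-out micro-EMBs of swine 5385 against 9.95% to 13.4% in 13 of the others, and 8.58% to 9.17% in 3 left-out blood libraries against 10.3% to 13.4% in 7. ND2 overlapped in the left-out micro-EMBs, with 4 of 4 libraries of swine 5385 within the range of the others (7.86% to 9.28% against 7.82% to 12.1%). For ND4 the ranges in these libraries overlapped, by 1 library of swine 5385 in micro-EMBs and by 1 in blood. Among the retained libraries, swine 5385 could be set beside another animal within time and region in 9 micro-EMB groups and 2 blood groups. The ND1 and ND4 shares were separate in all 11. That follows from the retained ranges, which do not overlap in either sample type, and adds no further evidence.

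**Figure D4:**
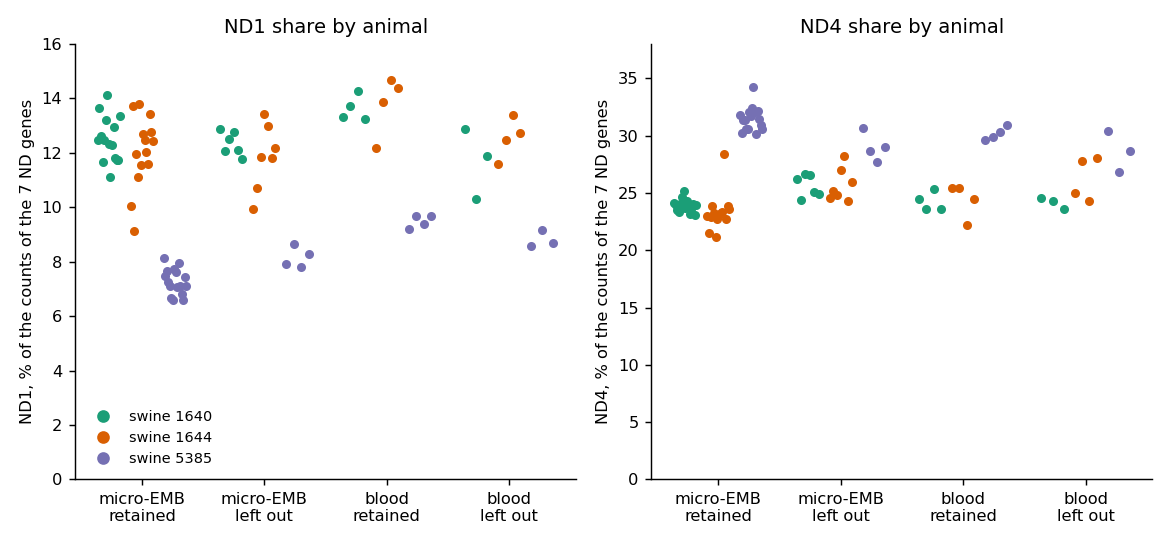
Percentage of the counts of the 7 members (vertical axes) that fell on ND1 (left) and on ND4 (right) in each library, by sample type and by whether the library was retained (horizontal axes); colours are the 3 swine. Swine 5385 lies below the other animals for ND1 in all 4 sets, at 6.58% to 9.70%, and above them for ND4 in both retained sets.

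The ratio of ND6 to ND5 counts also differed by animal, with some overlap in the retained libraries. It was 0.181 to 0.259 in the retained micro-EMBs of swine 5385 (median 0.204) and 0.247 to 0.404 in those of the other animals (median 0.271), where 1 library of swine 5385 fell within the range of the others. In the left-out micro-EMBs the ranges were 0.153 to 0.184 and 0.273 to 0.352. In the retained blood libraries they were 0.219 to 0.258 and 0.258 to 0.316, where 1 of the 4 libraries of swine 5385 fell within the range of the others.

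In an edgeR fit with group and swine as terms, ND4 was higher in micro-EMBs of swine 5385 than in the other animals by a log2 fold change of 0.81 (SE 0.26, adjusted p = 0.0315) and ND4L by 0.75 (SE 0.23, adjusted p = 0.0301). The other members were not called: ND5 gave 0.54 (SE 0.26), ND6 0.10 (SE 0.23), ND2 -0.03 (SE 0.26), ND3 -0.24 (SE 0.25) and ND1 -0.36 (SE 0.26). Here 14.7% of genes were called, against 2 of the 7 members. With all 62 micro-EMB libraries 0 members were called, and without the libraries apart on component 2 ND1 was called as well, at -0.52.

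In blood the same fit gave lower values for all 7 members in swine 5385, from -1.04 (SE 0.32) for ND1 to -0.21 (SE 0.32) for ND4. None was called, 0.0739% of genes were, and ND1, ND2 and ND3 had unadjusted p-values of 0.006511, 0.02656 and 0.0211. The difference between micro-EMBs and blood in how swine 5385 compared with the other animals was positive for all 7 members (0.66 to 1.13) and called for none, with 0.0108% of genes called and the lowest unadjusted p at 0.04427 for ND4L. Swine 1644 against swine 1640 gave 0 members called in micro-EMBs (-0.50 to -0.36, 0.0497% of genes called) and 0 in blood (-0.27 to -0.09, 0% of genes called, 774 at an unadjusted p under 0.05).

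These tests treat libraries as replicates, and the libraries are repeated samples of 3 animals, so all p-values measure the spread between libraries. An exact two-sided permutation of 1 animal against 2 cannot give a p below 0.333, and whether swine 5385 differs as an animal was therefore not testable. Other genes moved with it. ATP8, a subunit of ATP synthase encoded in the same genome, was lower in swine 5385 by 3.86 (SE 0.30) in micro-EMBs and by 5.18 (SE 0.51) in blood on the log2 scale, and was called in both. HBB, a globin chain, ran from 655 to 5895 CPM in its micro-EMBs against 6.70 to 157.9 CPM in those of the other animals, and was higher by 7.39 (SE 0.27). It carried the sum of the 5 erythroid markers there (661 to 5897 CPM against 7.28 to 174 CPM), and HBM and ALAS2 were at 0 in all 57 retained libraries. The remaining erythroid markers, counted in every retained blood library, reached no more than 15.1 CPM in any retained micro-EMB. Their blood medians were 64 CPM or more, so they did not rise with HBB to the level of blood. In blood, HBB of swine 5385 (5453 to 10992 CPM) lay within the range of the other animals (3357 to 13813 CPM). In micro-EMBs, leukocyte markers summed to 70.4 to 392 CPM in swine 5385 and to 75.9 to 606 CPM in the others. The part of erythroid or leukocyte markers in the members' proportions was not tested.

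The other protein genes of the mitochondrial genome went with the members between sample types. All 6 (COX1, COX2, COX3, ATP6, ATP8 and CYTB) were higher in micro-EMBs, with a median log2 fold change of 2.75, led by CYTB of complex III at 3.04 (SE 0.41) and COX1 at 2.91 (SE 0.45). Of 37 nuclear complex I subunits listed, 29 were found by symbol and 25 were tested, and 23 of the 25 were higher in micro-EMBs. Their median was 1.51, against 2.99 for the members. NDUFV1, which binds NADH, rose by 2.76 (SE 0.44) and NDUFAB1, the acyl carrier protein, by 2.13 (SE 0.33), while NDUFV2 and NDUFA7 were not called.

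Of 12 complex I assembly factors tested, 5 rose and 1 fell, a share close to the 48.6% of all genes tested that were called (4786 higher and 4181 lower of 18441), beside which the counts of the other lists stand too. ECSIT rose by 1.69 (SE 0.28) and NDUFAF1 by 0.87 (SE 0.19), both parts of an assembly complex for the membrane arm, and NUBPL, which delivers iron-sulfur clusters, fell by 0.54 on the log2 scale (SE 0.13). Of 15 genes of mitochondrial transcription and RNA stability 1 rose, MTERF3 at 1.48 (SE 0.32), and 1 fell, PNPT1 at -0.53 (SE 0.18). POLRMT, the mitochondrial RNA polymerase, at 0.12 (SE 0.19) and TFAM, which packages and transcribes the genome, at -0.28 (SE 0.18) did not pass the test. Of 8 regulators of mitochondrial gene programmes 4 rose and 2 fell, with PPARGC1A, the coactivator PGC-1α, at 5.15 (SE 0.80) and PPARA at 3.65 (SE 0.44).

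None of the genes of these lists was called between times or regions. At 0–1 h in the infarcted region all 25 nuclear subunits were below baseline (median -0.51), as were the 7 members (-0.56), and NDUFS1, a core subunit of the hydrophilic arm, stood at -0.58 (SE 0.56). The median of all genes tested was 0.05 there, and both groups held a library apart on component 2. At 14 days all 25 nuclear subunits were higher in the infarcted than in the non-infarcted region (median 0.47, NDUFS1 0.47, SE 0.46), whereas the 7 members were lower (median -0.20). Neither set of values passed the test, and the difference between the sets was not tested. Between regions at 14 days the median of all genes was -0.10. How many of all genes lay on the same side as these sets was not counted in either comparison.

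Within micro-EMBs the members rose and fell together from library to library. Pearson correlations of log2 CPM between pairs of members over the 45 retained libraries ran from 0.789 (ND1 and ND4L) to 0.987 (ND4 and ND5), a description over libraries that share scaling and animals. ND1, ND2 and ND3 were closest to one another (0.970 to 0.975), and so were ND4L, ND4 and ND5 (0.962 to 0.987). Among genes with a symbol, those outside the mitochondrial genome that followed the members' mean most closely were TPM1, a thin-filament tropomyosin (r = 0.863), DUSP26, a phosphatase (0.862), APOBEC2, a muscle member of the deaminase family (0.861), TRIM63, the muscle ubiquitin ligase MuRF1 (0.857), and IDH2, the mitochondrial isocitrate dehydrogenase (0.857). Without the 6 libraries apart on component 2 these fell to between 0.569 and 0.697 over 39 libraries, and over the 43 left without the 2 farthest from the median they were 0.789 to 0.814.

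**Figure D5:**
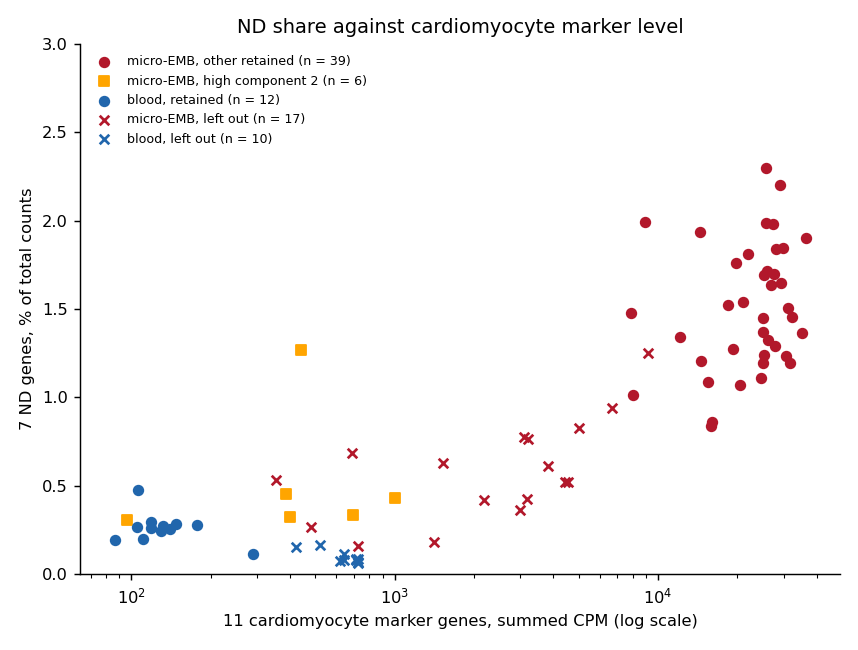
Share of total counts of the 7 members (%, vertical axis) against the summed CPM of the 11 cardiomyocyte markers found (horizontal axis, log scale) in each of the 84 libraries; colours and shapes give the sample type and whether the library was retained. Retained micro-EMBs with 7909 CPM or more of markers lie at 0.838% or above, and 5 of the 6 squares lie at 0.455% or below.

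Cardiomyocyte markers moved with the members. All 10 tested were higher in micro-EMBs than in blood, led by TNNC1 at 10.35 (SE 1.30) and TNNT2 at 10.33 (SE 1.26), and the summed level was 86.6 to 289 CPM in retained blood. The other cell type lists followed the sample types, with 7 of 7 fibroblast and 4 of 4 endothelial markers tested higher in micro-EMBs, and 8 of 8 leukocyte and 2 of 3 erythroid markers lower. POSTN, EGFL7 and CD79A were at 0 in all 57 retained libraries. TNNI3, a defining marker of the adult ventricle, was at 0 in 23 of 45 micro-EMB libraries in this count table. It reached no more than 2.17 CPM in any of the 45, against a median of 4523 CPM for TNNT2, and so was barely counted at all. Over the 45 micro-EMBs the mean log2 CPM of the cardiomyocyte list correlated with that of the members at r = 0.809 (Spearman 0.780), at 0.728 without the 2 libraries farthest from the median and at 0.667 in the 39 libraries. The nuclear complex I list gave 0.738, 0.673 and 0.599 on the same measures. Endothelial markers gave 0.717, and 0.552 in the 39 libraries. Fibroblast markers gave -0.608 and -0.118, and leukocyte markers -0.527 and -0.352. The part of cell makeup in the members' share was not tested.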

How the data were processed

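Total RNA of micro-EMBs and blood had been prepared with a stranded pico-input total RNA kit and sequenced as paired short reads. Per the labels and the study's methods, the authors aligned reads to Sscrofa11.1 with STAR and counted them per gene with featureCounts. The deposited values are raw counts per gene, without normalisation. Versions and the treatment of reads over several genes are not given in the sources used here. The authors removed mitochondrial and ribosomal genes before their own tests, which was not done here. They also excluded 6 outlier samples with raised collagen genes, which they took to come from fibrous parts of the heart. The main fits here kept the libraries that stood apart in the principal components, and so differ from the study in this too. Symbols were paired with 15029 of 31907 gene identifiers from a RefSeq-based table, and positions and sequence came from RefSeq on Sscrofa11.1.

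Shares are counts of the members over all counts of a library. Fits used R 4.3.3 and edgeR 4.0.16 (quasi-likelihood test, TMM normalisation, genes with at least 1 CPM in at least 20% of libraries of the fit, Benjamini-Hochberg adjustment over all genes tested, calls at 0.05), and DESeq2 1.42.0 was an alternative. The log2 CPM levels printed for the members are counts over the library total, without TMM or a prior count. Log2 CPM in the correlations with the members and in the principal components used TMM and a prior count of 2. Retained libraries had at least 10% of the median total (8431393 counts) and 7% to 60% of counts in their 10 most counted genes. Component 2 came from the 500 most variable genes, with a limit of 25. Retained libraries held 3499443 to 16659100 counts, which leaves at least 180 counts of each member in each of them. The fit of the infarcted region at 1–3 h against baseline was run on simulated counts, which held no differences between animals.

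Groups came from the labels for location, time and swine. Libraries of the same swine deviated together from their group means (mean correlation 0.133 in micro-EMBs, against -0.0825 between swine), and the pairing comes from the swine number in the labels, which is also why a block by swine was fitted. Main fits had no block, as in the study. The members and lists were chosen with earlier results of these data known. All 7 members are given in each comparison. From each other list the 2 called genes of largest change are named or, with none called, the 2 of highest level, and so are the 5 genes outside the mitochondrial genome of highest correlation with the members. A gene that this rule also names is not reported here. NDUFV2, NDUFA7, NUBPL, PNPT1, POLRMT, TFAM and HBB were named after their values were seen. No test used the 1 blood library of 11505 counts.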

Additional observations from a re-analysis of the deposited data

Results flagged for a closer look

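Of 36 combinations of a group of 4 or more libraries and a measure of the members, 4 held a library whose gap to its nearest neighbour was over Dixon's 95% critical value, and chance alone flags about 5% of such groups. The ND6 to ND5 count ratio of replicate 5 of the infarcted region at 14 days (swine 1644, apart on component 2) was 0.404, against 0.197 to 0.285 in the other libraries of its group. ND4 made up 32.0% of the members' counts in replicate 6 of the infarcted region at 2 days (swine 5385), against 23.1% to 24.3%. In replicate 3 of the non-infarcted region at 2 days (swine 5385), ND4 made up 30.6% against 23.1% to 23.9%, and the ND6 to ND5 ratio was 0.212 against 0.247 to 0.253. Each of these libraries of swine 5385 was the only one of that animal in its group of 4.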

How the results depend on the processing

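In every alternative run, all 7 members stayed called between micro-EMBs and blood and 0 were called between times or regions. Genes called by DESeq2 in place of edgeR were 2, 1423 and 8 in the infarcted region at 0–1 h, 1–3 h and 2 days, 7 and 58 in the non-infarcted region at 0–1 h and 1–3 h, 5 between regions at 2 days, and 63 and 1 in blood at 1–3 h and 2 days. With all 84 libraries they were 1.1e+02 (infarcted, 1–3 h, against 291), 18 (infarcted, 14 days, against 0) and 3 (between regions, 1–3 h, against 12), and mean shares were 0.172% (blood, 1–3 h), 0.104% (blood, baseline) and 1.01% (infarcted, 2 days). Between regions at 1–3 h, 4 genes were called with DESeq2's size factors and 0 without the libraries apart on component 2. Counts summed per swine and group gave 0 genes there and 0 in the infarcted region at 1–3 h. With swine as a replicate block, 0 genes were called between regions at 1–3 h and 3 in blood at 1–3 h, and the block changed no other call. Without the filter on low counts blood at 1–3 h gave 10 genes. The cause of these changes was not tested.

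Leaving out 1 library at a time gave 8 to 36 genes in the infarcted region at 1–3 h where a baseline library was dropped (8 without replicate 2, 15 without replicate 5, 33 without replicate 1, 36 without replicate 6), 0 to 1.6e+02 in the non-infarcted region at 1–3 h (the highest without its replicate 6), 0 (without replicate 4 of the non-infarcted group) to 30 (without its replicate 6) between regions at 1–3 h and 0 to 1 in blood at 1–3 h. The members' median then ran from -0.91 to 0.33 in the non-infarcted region at 1–3 h and from -0.18 to 1.11 between regions at 1–3 h. The calls of ND4 and ND4L in swine 5385 were lost with all 62 micro-EMB libraries (0 members), and 2 members, ND1 and ND3, were called in its blood without the filter. In the other time and region comparisons, leaving out 1 library kept the direction of the members' median in the infarcted region at 0–1 h, between regions at 0–1 h and 2 days, and in blood at 1–3 h, and turned it in the infarcted region at 1–3 h, 2 days (-0.26 to 0.31) and 14 days, in the non-infarcted region at 0–1 h (-0.10 to 0.53), 2 days (-0.08 to 0.52) and 14 days (-0.39 to 0.20), and in blood at 2 days (-0.54 to 0.32). Log2 fold changes of the members had SEs of 0.40 or more between times and regions of micro-EMBs and of 0.30 to 0.49 in blood, which limits what these libraries could show.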
